A study of Mus musculus with 13 samples.

Results

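The 44 genes described here encode the proteins that copy DNA and supply its building blocks, and they were chosen by name as 8 genes of origin licensing and firing, 11 of the replicative helicase, 6 of the sliding clamp and its loader, 9 of the polymerases and primase, 5 of Okazaki fragment processing and single-strand binding, and 5 of deoxynucleotide synthesis. They are 44 of the 43629 genes in the table, and all 44 passed the filter on low values. Polyadenylated RNA was sequenced from thymic T cell lymphomas of 5 Atm-/- mice on the 129S6/SvEv strain, from thymic T cell lymphomas of 5 Rag2c/c p53-/- mice on a mixed background of C57BL/6 and 129S6/SvEv, and from the thymus of 3 WT mice of strain C57BL/6, 1 library per mouse. Atm encodes the kinase that signals DNA double-strand breaks, p53 (Trp53) the transcription factor that halts damaged cells, and Rag2c/c mice carry a RAG2 recombinase without its C-terminus. The WT thymuses were re-used from an earlier series, so strain, series of origin and genotype cannot be told apart in any comparison with them. Between the lymphoma groups strain also goes with genotype, so these cannot be told apart there either. The ages of the mice and the design of the Atm and p53 alleles were not given in the sources used here. A WT thymus holds T cells of many stages whereas a lymphoma is an outgrowth, and in such bulk samples more cells that replicate and more RNA per cell cannot be told apart.

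In dividing cells, the origin recognition complex, CDC6 and CDT1 load the MCM2-7 ring onto DNA in G1 phase, and geminin (Gmnn) later blocks reloading. The kinase CDC7 then helps to turn the ring into the active CMG helicase by adding CDC45 and the GINS complex, primase and polymerase alpha start each strand, and the clamp loader RFC places PCNA for polymerases delta and epsilon. Most of these genes are transcribed around the entry into S phase under E2F factors, and immature thymocytes are among the most rapidly dividing cells of the body, so WT thymus is itself a replicating tissue.

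Values are taken to be normalized read counts, which are read counts divided by the authors' size factors and rounded. This unit was read from the values and is not named in the sources used here. The 13 columns summed to between 19788898 and 21591289. In WT thymus replicate 2 and Rag2c/c p53-/- replicate 2, the shallowest libraries, 1 read was worth 3.23 and 3.38 of these units, so their values rest on the fewest reads. The members had values of 312 to 14432 in every library, so all of them lay far above the level of 1 read. As a check of the labels, Atm was at 208 to 732 in the Atm-/- lymphomas and at 1559 to 2274 in WT thymus, but it was also below WT thymus in Rag2c/c p53-/- lymphomas (439 to 1315). Gene-level counts do not show a truncation or an altered allele, so Trp53 (2018 to 5461 in Rag2c/c p53-/- lymphomas, 4387 to 6341 in WT thymus) and Rag2 check nothing here. Of 11 thymocyte genes, Rag1, Themis and Bcl11b passed as lower in both lymphoma groups, and Cd8a and Cd8b1 did so in Atm-/- lymphomas. The others, among them the T cell genes Cd3e and Lck, did not pass (Cd3e means of 11576 in WT thymus, 10782 in Atm-/- lymphomas and 10922 in Rag2c/c p53-/- lymphomas).

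The promoters were read first, because the members are described as a group that moves together. RefSeq promoter entries (GRCm38.p6) matched 36 of the 44 members, and the 250 bases before the start were searched on both strands. The start is that of the RefSeq entry, and it can lie inside the annotated span of the gene. The E2F word, spelled as TTTCCCGC, TTTCGCGC, TTTGCCGC or TTTGGCGC, was found before 8 of the 36 members (22.2%) and before 2.16% of all 27025 genes with an entry. The CCAAT box, the site of factor NF-Y, was found before 22 members (61.1%) and 37.5% of all genes. The CHR element of late cell cycle genes, spelled as TTTGAA or TTCGAA, was found before 8 members (22.2%) and 19.6% of all genes. All 11 E2F words of the 8 members are shown with up to 11 bases on each side, on the strand of the gene, with the word in capitals. They are shown because E2F factors are the regulators these genes are best known for. In some entries with a word, the 250 bases overlapped annotated exons of this or another gene. The overlap was 164 bases in Orc1, 81 in Cdc6, 250 in Mcm7, 106 in Gins3 and 34 in Rfc3. It was 0 in Mcm5, Mcm6 and Pola1. Words that overlap in Mcm5 and Mcm6 are given on separate lines.
Orc1, chr4:108579416-108579445, plus strand: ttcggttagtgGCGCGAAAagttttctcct
Cdc6, chr11:98908002-98908031, plus strand: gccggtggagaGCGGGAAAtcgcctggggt
Mcm5, chr8:75109345-75109374, plus strand: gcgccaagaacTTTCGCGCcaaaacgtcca
Mcm5, chr8:75109349-75109378, plus strand: caagaactttcGCGCCAAAacgtccagcct
Mcm6, chr1:128359797-128359826, minus strand: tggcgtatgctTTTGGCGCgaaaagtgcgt
Mcm6, chr1:128359793-128359822, minus strand: gtatgcttttgGCGCGAAAagtgcgtgcgg
Mcm6, chr1:128359734-128359763, minus strand: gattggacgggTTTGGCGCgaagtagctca
Mcm7, chr5:138172030-138172059, minus strand: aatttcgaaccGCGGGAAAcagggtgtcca
Gins3, chr8:95633507-95633536, plus strand: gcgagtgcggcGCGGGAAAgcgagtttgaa
Rfc3, chr5:151651209-151651229, minus strand: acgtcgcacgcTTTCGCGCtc
Pola1, chrX:93632275-93632304, minus strand: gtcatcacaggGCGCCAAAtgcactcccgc

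Set beside the calls described below, the word stood before 6 of the 25 members with an entry that passed in both comparisons with WT thymus (Cdc6, Mcm5, Mcm6, Mcm7, Orc1 and Rfc3) and before 2 of the 8 that passed in neither (Gins3 and Pola1). The 250 bases of 2 promoters, chosen after their values were seen, show a member that rose with 3 E2F words and 2 CCAAT boxes (Mcm6) beside the member with the lowest difference from WT thymus in both lymphoma groups (Pola1), which has 1 of each. Capitals mark E2F words and CCAAT boxes on either strand.
Mcm6, chr1:128359706-128359955, minus strand: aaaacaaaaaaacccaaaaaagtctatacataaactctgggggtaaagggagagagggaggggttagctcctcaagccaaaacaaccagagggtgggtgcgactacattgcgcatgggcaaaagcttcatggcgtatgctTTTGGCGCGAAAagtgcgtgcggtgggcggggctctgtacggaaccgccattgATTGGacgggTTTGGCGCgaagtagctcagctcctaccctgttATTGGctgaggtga
Pola1, chrX:93632156-93632405, minus strand: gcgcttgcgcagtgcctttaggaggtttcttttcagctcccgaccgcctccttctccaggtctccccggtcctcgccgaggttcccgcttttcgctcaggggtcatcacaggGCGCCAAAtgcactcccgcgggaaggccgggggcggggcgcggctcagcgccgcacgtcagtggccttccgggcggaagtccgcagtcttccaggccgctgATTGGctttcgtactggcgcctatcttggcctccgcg

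Replication genes stood higher in both kinds of lymphoma than in WT thymus. In Atm-/- lymphomas, 35 of 44 members passed the test as higher (adjusted p under 0.05, limma) and none as lower, where 21.0% of all genes tested passed as higher and 23.6% as lower. In Rag2c/c p53-/- lymphomas, 32 of 44 passed as higher and none as lower, where 17.5% of all genes passed as higher and 19.7% as lower. Both comparisons use the same 3 WT thymuses. The median member was 1.76-fold higher in Atm-/- lymphomas (log2 difference 0.82) and 1.68-fold higher in Rag2c/c p53-/- lymphomas (0.75), while the median of all genes tested was at -0.02 in both. Differences ran from -0.18 (Pola1) to 1.61 (Rfc3) in Atm-/- lymphomas and from -0.40 (Pola1) to 1.39 (Orc1) in Rag2c/c p53-/- lymphomas. Gains were mostly under 2-fold: 10 members passed with at least 2-fold in each comparison, where 12.7% of all genes did so as higher in Atm-/- lymphomas and 9.92% in Rag2c/c p53-/- lymphomas. All 5 Atm-/- lymphomas lay above all 3 WT thymuses for 32 members (23.4% of all genes), and all 5 Rag2c/c p53-/- lymphomas did so for 37 members (19.7% of all genes).

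**Figure D1:**
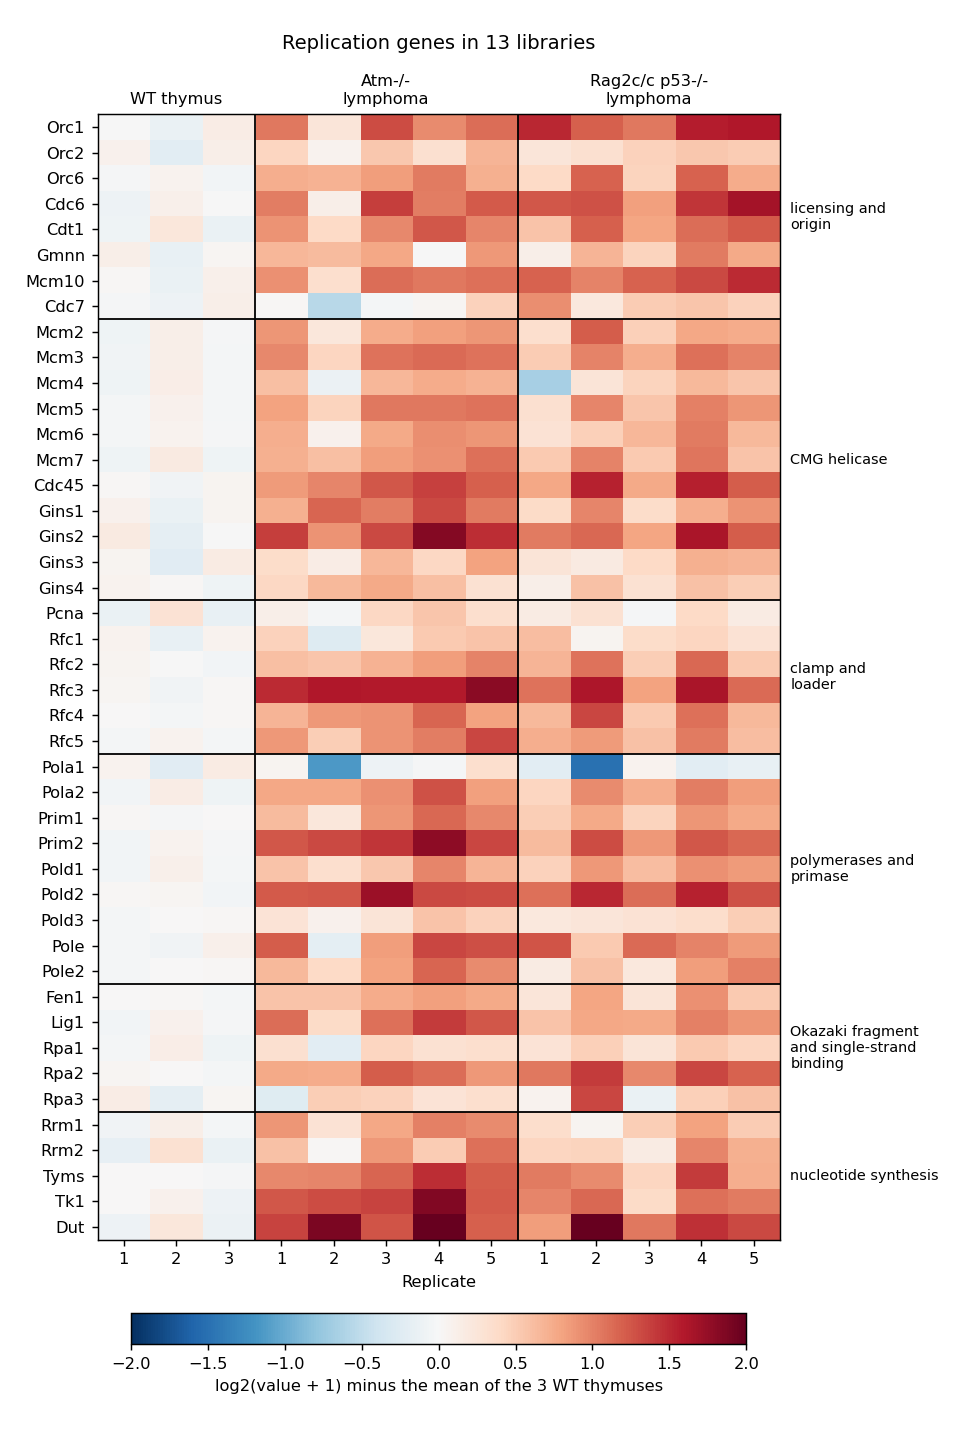
Each row is 1 of the 44 replication genes, grouped by role, and each column is 1 of the 13 libraries; color gives log2(value + 1) minus the mean of the 3 WT thymuses, from -2 (blue) to 2 (red). Red prevails in the lymphoma columns, with Pola1 as a pale or blue row and Atm-/- replicate 2 as the palest Atm-/- column. Cdc7 is mostly pale or blue in the Atm-/- columns and mostly light red in the Rag2c/c p53-/- columns, where replicate 2 is also pale.

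**Figure D2:**
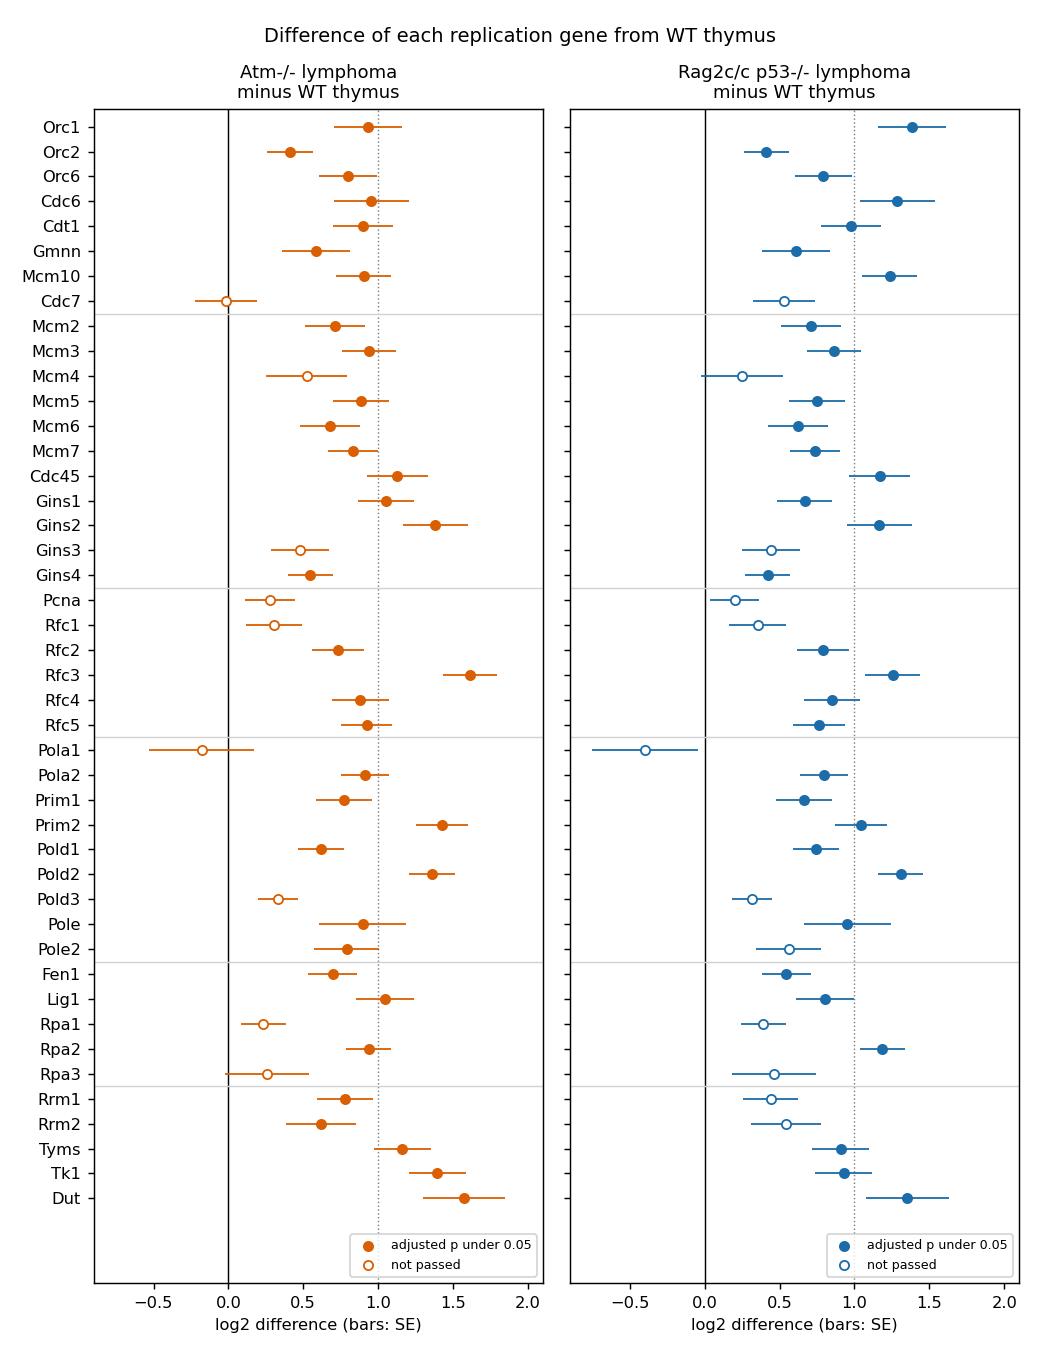
Points are the log2 differences of the 44 genes from WT thymus in Atm-/- lymphomas (left, n = 5) and Rag2c/c p53-/- lymphomas (right, n = 5), with bars for the SE of the limma fit; filled points passed at an adjusted p under 0.05 and the dotted line marks 2-fold. Filled points number 35 on the left and 32 on the right, and all of them lie right of 0.

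Among the 8 genes of licensing and origin firing, 7 rose in each lymphoma group, with a median difference of 0.85 in Atm-/- lymphomas and 0.89 in Rag2c/c p53-/- lymphomas. Orc1 (chr4:108579423-108614833) encodes the subunit of the origin recognition complex whose level cycles in S phase. It was at 341, 312 and 380 normalized counts in WT thymus, at 715, 406, 853, 660 and 744 in Atm-/- lymphomas and at 979, 787, 713, 1018 and 1048 in Rag2c/c p53-/- lymphomas. Every lymphoma stood above every WT thymus, with Atm-/- replicate 2 closest to them. The log2 difference was 0.93 ± 0.23 (SE, adjusted p = 0.00508) in Atm-/- and 1.39 ± 0.23 (adjusted p = 0.000535) in Rag2c/c p53-/- lymphomas. Cdc6 (chr11:98907801-98923940), the ATPase that recruits MCM2-7, was at 1355, 1559 and 1442 in WT thymus, at 2944, 1567, 3770, 2961 and 3401 in Atm-/- lymphomas and at 3447, 3509, 2554, 3895 and 4610 in Rag2c/c p53-/- lymphomas. Atm-/- replicate 2 barely exceeded the highest WT thymus, and the other lymphomas lay well above it. The differences were 0.95 ± 0.25 (adjusted p = 0.00805) and 1.29 ± 0.25 (adjusted p = 0.00167).

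Orc2, an origin recognition subunit that stays on chromatin through the cycle, changed least among the members of this role that passed. Its means were 1369 ± 163 (SD, n = 3) in WT thymus, 1830 ± 282 (n = 5) in Atm-/- and 1818 ± 155 (n = 5) in Rag2c/c p53-/- lymphomas, a difference of 0.41 in each (adjusted p = 0.0418 and 0.0478). Leaving out any 1 of the 3 WT thymuses raised these adjusted p-values above 0.05 (0.0696 to 0.198). The call of Gmnn, encoding geminin (adjusted p = 0.0497 and 0.0482), was also lost without any 1 WT thymus. Of the 17 alternatives run for each comparison, changes of scaling, filter or moderation among them, Orc2 passed in 5 and 7 and Gmnn in 4 and 6. Orc6, a further origin recognition subunit, rose by 0.80 and 0.79, Cdt1, the loading partner of CDC6, by 0.90 and 0.98, and Mcm10, an initiation factor that binds the ring, by 0.90 and 1.23.

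Cdc7 (chr5:106964322-106984432), the origin-firing kinase, was the exception of the role. It was at 1411, 1325 and 1554 in WT thymus and at 1456, 966, 1383, 1468 and 1970 in Atm-/- lymphomas, so these groups overlapped (log2 difference -0.01, adjusted p = 0.961). The Rag2c/c p53-/- lymphomas, at 2718, 1645, 2029, 2096 and 1963, all lay above WT thymus, and the difference of 0.53 ± 0.21 missed the threshold (adjusted p = 0.0578). It passed without Rag2c/c p53-/- replicate 2 (0.61, adjusted p = 0.0341). The gene for its activating subunit, Dbf4, passed as higher in Rag2c/c p53-/- lymphomas (0.62, adjusted p = 0.0238) and was at 0.45 in Atm-/- lymphomas (adjusted p = 0.0734).

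Of the 11 genes of the CMG helicase, 9 passed as higher in each lymphoma group, and all 11 had positive differences. The medians were 0.83 in Atm-/- lymphomas and 0.71 in Rag2c/c p53-/- lymphomas. The 6 ring genes Mcm2 to Mcm7 were among the highest of all members in absolute level, at 863 (Mcm2) to 1514 (Mcm6) normalized counts per kb of exon in WT thymus and at 1433 to 2638 in Atm-/- lymphomas. Mcm2 (chr6:88883475-88898780) was at 5665, 6481 and 5873 in WT thymus, at 11092, 6988, 10038, 10612 and 11111 in Atm-/- lymphomas and at 7546, 13894, 8358, 10298 and 9982 in Rag2c/c p53-/- lymphomas. No lymphoma fell into the WT range, although Atm-/- replicate 2 came near it. The difference was 0.71 ± 0.20 in both comparisons (adjusted p = 0.0113 and 0.0143), and in Rag2c/c p53-/- lymphomas it missed the threshold without WT thymus replicate 1 (adjusted p = 0.0611) or 3 (0.0555). Mcm3 had the largest difference of the ring genes in both groups. It was at 4506, 5110 and 4615 in WT thymus, at 9241, 6360, 10073, 10411 and 10029 in Atm-/- lymphomas (0.94 ± 0.18, adjusted p = 0.0011) and at 6742, 9453, 7853, 10130 and 9386 in Rag2c/c p53-/- lymphomas (0.86 ± 0.18, adjusted p = 0.00248). The other ring genes that rose were Mcm5 (0.89 and 0.75), Mcm6 (0.68 and 0.62) and Mcm7 (0.83 and 0.74).

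Mcm4 (chr16:15623897-15637400) did not pass in either comparison, unlike the other 5 ring genes. Its values were 4810, 5591 and 4951 in WT thymus, 7776, 4718, 8125, 8551 and 8306 in Atm-/- lymphomas and 3216, 6137, 6966, 8010 and 7539 in Rag2c/c p53-/- lymphomas. In each lymphoma group 4 of 5 libraries stood above WT thymus and 1 below, namely Atm-/- replicate 2 and Rag2c/c p53-/- replicate 1. The differences were 0.52 (adjusted p = 0.135) and 0.25 (adjusted p = 0.493), and without Atm-/- replicate 2 the first became 0.68 (adjusted p = 0.0432).

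Of the subunits that activate the ring, Cdc45 and Gins2 had the highest differences of the helicase in both groups. Cdc45 (chr16:18780447-18811987) was at 1084, 1020 and 1115 in WT thymus, at 1932, 2108, 2548, 2775 and 2468 in Atm-/- lymphomas and at 1837, 3127, 1808, 3165 and 2478 in Rag2c/c p53-/- lymphomas. The groups were far apart, at 2.19-fold (log2 1.13 ± 0.20, adjusted p = 0.000719) and 2.25-fold (1.17 ± 0.20, adjusted p = 0.0008). Gins2 (chr8:120578633-120589304), a GINS subunit, was at 506, 393 and 445 in WT thymus, at 1167, 831, 1114, 1589 and 1242 in Atm-/- lymphomas (1.38 ± 0.22, adjusted p = 0.000277) and at 920, 990, 770, 1384 and 1034 in Rag2c/c p53-/- lymphomas (1.17 ± 0.22, adjusted p = 0.00123). The 4 GINS genes, whose products form 1 complex, differed in size of change. Gins1 rose by 1.05 and 0.67 and Gins4 by 0.55 and 0.42, and Gins3 did not pass (0.48, adjusted p = 0.0611, and 0.44, adjusted p = 0.0886). Gins3 passed in Atm-/- lymphomas without replicate 2 (0.56, adjusted p = 0.0286), and the call of Gins4 in Rag2c/c p53-/- lymphomas was lost without any 1 WT thymus.

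**Figure D3:**
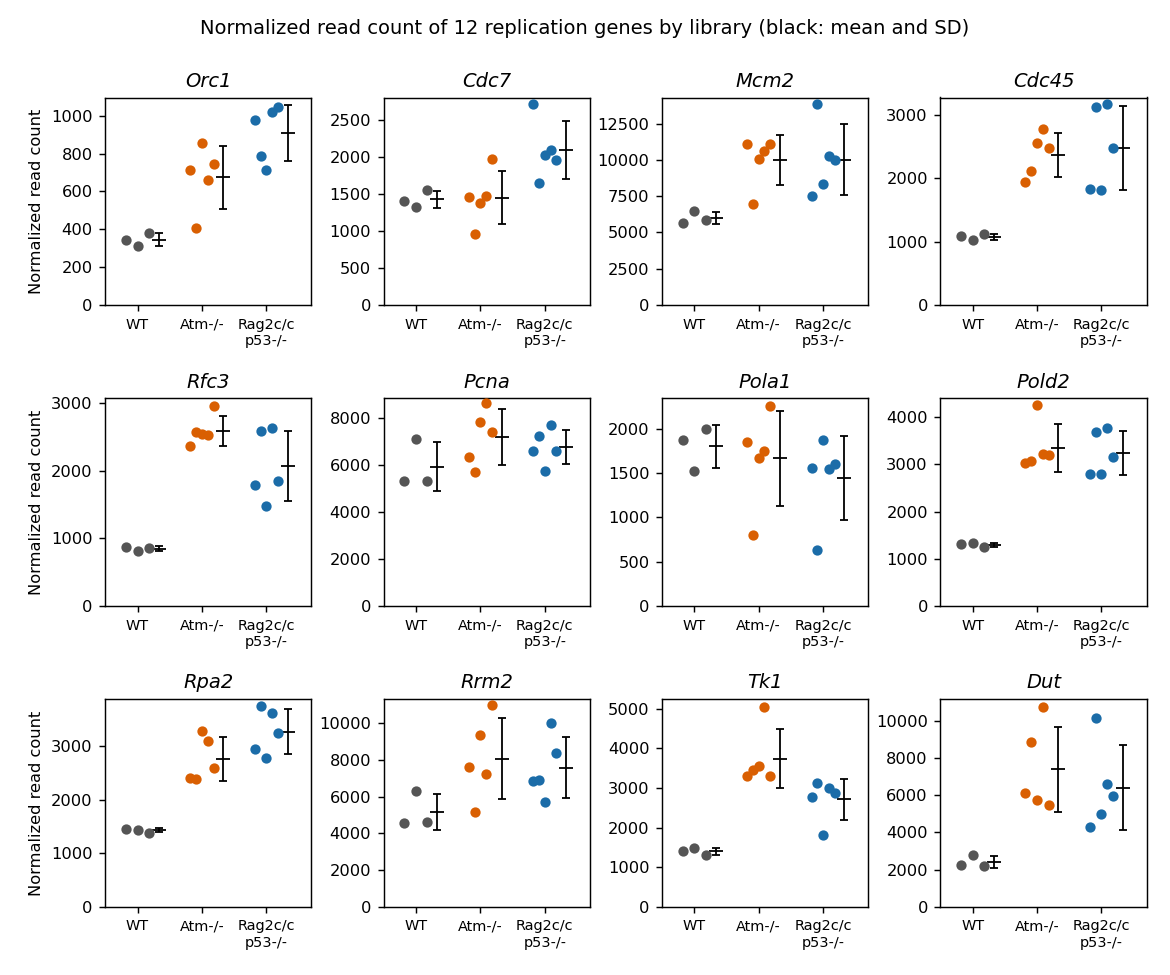
Normalized read counts of 12 replication genes in the 3 WT thymuses (gray), 5 Atm-/- lymphomas (orange) and 5 Rag2c/c p53-/- lymphomas (blue), 1 point per library on axes that start at 0, with the mean and SD in black. Orc1, Mcm2, Cdc45, Rfc3, Pold2, Rpa2, Tk1 and Dut have every lymphoma above every WT thymus. Pcna, Pola1 and Rrm2 overlap WT thymus in both lymphoma groups.

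Of the 6 genes of the clamp and its loader, 4 passed as higher in each group, and all 6 had positive differences. Rfc3 (chr5:151642756-151651242), a small loader subunit, had the highest difference of all members in Atm-/- lymphomas. It was at 873, 806 and 858 in WT thymus, at 2367, 2576, 2540, 2538 and 2967 in Atm-/- lymphomas and at 1791, 2597, 1479, 2631 and 1847 in Rag2c/c p53-/- lymphomas. The Atm-/- values were close together and 3.06-fold above WT thymus (log2 1.61 ± 0.18, adjusted p = 2.64e-05). The Rag2c/c p53-/- values were 2.39-fold above (1.25 ± 0.18, adjusted p = 0.000234). The other small subunits rose less, by 0.73 and 0.79 (Rfc2), 0.88 and 0.85 (Rfc4) and 0.92 and 0.76 (Rfc5). Rfc1, the large subunit specific to the replication loader, was at 0.30 and 0.35 and did not pass (adjusted p = 0.2 and 0.154). The small subunits also serve other clamp loaders, and Chtf18, the large subunit of the cohesion loader, had means of 783 ± 21 in WT thymus, 1628 ± 446 in Atm-/- lymphomas and 1716 ± 236 in Rag2c/c p53-/- lymphomas and passed as higher in both.

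Pcna (chr2:132249162-132253314), the sliding clamp and a common marker of proliferation, did not pass in either comparison. It was at 5328, 7137 and 5323 in WT thymus, at 6342, 5693, 7859, 8662 and 7435 in Atm-/- lymphomas and at 6611, 7227, 5766, 7712 and 6594 in Rag2c/c p53-/- lymphomas. WT thymus replicate 2 lay inside the range of both lymphoma groups, and the other 2 WT thymuses lay below every lymphoma. The differences were 0.28 (adjusted p = 0.182) and 0.20 (adjusted p = 0.354). With a quality weight per library Pcna passed in both comparisons (0.43, adjusted p = 0.00132, and 0.28, adjusted p = 0.0338). In that setting 11125 and 9623 of all 15872 genes tested passed as well. Per kb of exon Pcna was the most abundant member in WT thymus, at 2471 normalized counts. The table also holds a pseudogene named Pcna-ps2 with a mean of 1123, so reads could be split between near-identical copies.

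Of the 9 polymerase and primase genes, 7 passed as higher in Atm-/- lymphomas and 6 in Rag2c/c p53-/- lymphomas, and 8 had positive differences in each. Pold2 (chr11:5872180-5878292), an accessory subunit of polymerase delta, had the lowest adjusted p of all members in both comparisons. It was at 1313, 1329 and 1246 in WT thymus, at 3028, 3067, 4248, 3228 and 3201 in Atm-/- lymphomas and at 2791, 3688, 2797, 3760 and 3145 in Rag2c/c p53-/- lymphomas. Even the lowest lymphoma was far above the WT range, with differences of 1.36 ± 0.15 (adjusted p = 2.32e-05) and 1.31 ± 0.15 (adjusted p = 5.05e-05). The catalytic subunit gene Pold1 rose by 0.62 and 0.74, and Pold3, at 0.33 and 0.32, did not pass (adjusted p = 0.0561 and 0.0732) although all lymphomas exceeded WT thymus.

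The primase and polymerase alpha genes, whose products act as 1 complex, diverged. Prim2 (chr1:33453810-33669795), the large primase subunit, was at 1030, 1124 and 1050 in WT thymus, at 2529, 2681, 2886, 3693 and 2686 in Atm-/- lymphomas (1.43 ± 0.17, adjusted p = 4.19e-05) and at 1657, 2644, 1957, 2536 and 2373 in Rag2c/c p53-/- lymphomas (1.04 ± 0.17, adjusted p = 0.000557). Pola2, the regulatory subunit of polymerase alpha, was at 1853, 2138 and 1829 in WT thymus, at 3292, 3323, 3659, 4674 and 3435 in Atm-/- lymphomas (0.91 ± 0.16, adjusted p = 0.000594) and at 2620, 3742, 3203, 3940 and 3469 in Rag2c/c p53-/- lymphomas (0.80 ± 0.16, adjusted p = 0.00197). Both genes stood above WT thymus in all 10 lymphomas. Prim1, the catalytic primase subunit, rose by 0.77 and 0.66.

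Pola1 (chrX:93304767-93632155), the catalytic subunit of polymerase alpha, was the member whose mean lay below WT thymus in both lymphoma groups. It was at 1875, 1527 and 1994 in WT thymus, at 1852, 802, 1666, 1752 and 2260 in Atm-/- lymphomas and at 1551, 635, 1872, 1550 and 1605 in Rag2c/c p53-/- lymphomas. Replicate 2 of each lymphoma group was far below the other 4, which overlapped WT thymus. The differences were -0.18 ± 0.35 (adjusted p = 0.701) and -0.40 ± 0.35 (adjusted p = 0.394), and the first turned to 0.06 without Atm-/- replicate 2. Pole, the catalytic subunit of polymerase epsilon, was also lowest in replicate 2 of both groups (1968 and 3239). Its call (0.90, adjusted p = 0.0241, and 0.95, adjusted p = 0.0212) was lost in both comparisons without any 1 WT thymus and in Atm-/- lymphomas also without replicate 4 or 5. The accessory gene Pole2 rose in Atm-/- lymphomas (0.79, adjusted p = 0.0104) and was at 0.56 in Rag2c/c p53-/- lymphomas (adjusted p = 0.0578), where it passed without replicate 1 or 3.

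Of the 5 genes of Okazaki fragment processing and single-strand binding, Fen1, Lig1 and Rpa2 passed as higher in both groups, and all 5 had positive differences. Lig1, the ligase that seals the fragments, was at 3507, 3872 and 3596 in WT thymus, at 7911, 4748, 7854, 9675 and 8620 in Atm-/- lymphomas (1.05 ± 0.19, adjusted p = 0.000881) and at 5457, 6248, 6204, 7375 and 6726 in Rag2c/c p53-/- lymphomas (0.80 ± 0.19, adjusted p = 0.00615). The flap nuclease gene Fen1 rose by 0.70 and 0.54, and its call in Rag2c/c p53-/- lymphomas was lost without any 1 WT thymus. The 3 subunits of RPA, which coats single strands, moved unequally. Rpa2 was at 1459, 1436 and 1386 in WT thymus, at 2404, 2393, 3293, 3102 and 2591 in Atm-/- lymphomas (0.94 ± 0.15, adjusted p = 0.000294) and at 2955, 3759, 2771, 3615 and 3247 in Rag2c/c p53-/- lymphomas (1.19 ± 0.15, adjusted p = 8.97e-05). Its 10 lymphoma values stood well clear of the WT thymuses. Rpa1, the large subunit, was at 5124, 5773 and 4986 in WT thymus, at 6575, 4542, 7095, 6560 and 6648 in Atm-/- lymphomas and at 6398, 7349, 6312, 7562 and 7088 in Rag2c/c p53-/- lymphomas. Atm-/- replicate 2 was the single lymphoma below WT thymus. Rpa1 did not pass (0.23, adjusted p = 0.22, and 0.39, adjusted p = 0.056), but passed in Atm-/- lymphomas without replicate 2 (0.35, adjusted p = 0.0272). The small subunit Rpa3 was at 0.26 and 0.46 and did not pass (adjusted p = 0.466 and 0.209).

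All 5 genes of deoxynucleotide synthesis passed as higher in Atm-/- lymphomas, with a median difference of 1.16. In Rag2c/c p53-/- lymphomas all 5 had positive differences and 3 passed as higher, with a median of 0.91. Dut (chr2:125247190-125258608), which removes dUTP and so keeps uracil out of DNA, had the highest difference of the role in both groups. It was at 2228, 2794 and 2209 in WT thymus, at 6122, 8865, 5735, 10741 and 5502 in Atm-/- lymphomas and at 4279, 10156, 5001, 6628 and 5959 in Rag2c/c p53-/- lymphomas. All lymphomas were above WT thymus but they spread widely among themselves, and the differences were 1.57 ± 0.28 (adjusted p = 0.00059) and 1.35 ± 0.28 (adjusted p = 0.00215). Tk1 (chr11:117815526-117826092), the S-phase thymidine kinase, was at 1414, 1481 and 1307 in WT thymus, at 3313, 3460, 3555, 5052 and 3289 in Atm-/- lymphomas (1.40 ± 0.19, adjusted p = 9.89e-05) and at 2762, 3117, 1819, 3001 and 2860 in Rag2c/c p53-/- lymphomas (0.93 ± 0.19, adjusted p = 0.00218). The 3 groups did not overlap each other. Tyms, which makes thymidylate, rose by 1.16 and 0.91.

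Both genes of ribonucleotide reductase, the enzyme that makes deoxynucleotides, passed in Atm-/- lymphomas and neither did in Rag2c/c p53-/- lymphomas. Rrm1, its large subunit, was at 5411, 6153 and 5498 in WT thymus, at 10508, 6935, 9695, 11364 and 10879 in Atm-/- lymphomas (0.78 ± 0.19, adjusted p = 0.00452) and at 7225, 5877, 7998, 9930 and 8048 in Rag2c/c p53-/- lymphomas (0.44 ± 0.19, adjusted p = 0.0774). Rag2c/c p53-/- replicate 2 lay inside the WT range, and without it Rrm1 passed (0.54, adjusted p = 0.0295). Rrm2, the small subunit of S phase, was at 4551, 6289 and 4634 in WT thymus, at 7639, 5186, 9344, 7239 and 10970 in Atm-/- lymphomas and at 6878, 6907, 5686, 10030 and 8361 in Rag2c/c p53-/- lymphomas. In each group 1 lymphoma lay inside the WT range, namely Atm-/- replicate 2 and Rag2c/c p53-/- replicate 3. Rrm2 passed barely in Atm-/- lymphomas (0.62 ± 0.24, adjusted p = 0.0472) and not in Rag2c/c p53-/- lymphomas (0.54 ± 0.24, adjusted p = 0.0857). The first call was lost in 6 of the 8 fits that each left out 1 library, among them those without WT thymus replicate 1 (adjusted p = 0.159) or 3 (0.154). It was also lost with either other scaling, without the filter, with only the groups compared and without trend and robust moderation (adjusted p = 0.0518 to 0.0695). Between the lymphoma groups themselves neither gene passed in limma, with Rrm1 at 0.34 (adjusted p = 0.202) and Rrm2 at 0.08 (adjusted p = 0.86).

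Across the 17 alternative settings that each comparison had, 29 of the 35 calls in Atm-/- and 23 of the 32 calls in Rag2c/c p53-/- lymphomas held in every one. The calls that single libraries decided in Atm-/- lymphomas were those of Orc2, Gmnn, Mcm6, Gins4, Pole and Rrm2, and Mcm4, Gins3, Rfc1, Pold3 and Rpa1 passed once Atm-/- replicate 2 was left out while Gmnn was lost, which moved the count from 35 to 39. With a quality weight per library, 41 members passed in Atm-/- lymphomas and 42 in Rag2c/c p53-/- lymphomas. In that setting 11125 and 9623 of all 15872 genes tested passed in either direction, so a gained call there sets a member little apart. In Rag2c/c p53-/- lymphomas the calls that single libraries decided were those of Orc2, Gmnn, Mcm2, Mcm6, Gins1, Gins4, Pole and Fen1, and leaving out any 1 WT thymus gave 25. Some members lie across or next to another expressed gene on the opposite strand (Gins2 and Gse1, Cdc45 and Ufd1l, Rfc4 and Eif4a2, Mcm7 and Cops6, Fen1 and Tmem258), and whether the counting used strand was not given in the sources used here, so a share of their reads may belong to the neighbor.

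The height of the members over WT thymus differed among individual lymphomas. The median member stood above the WT mean by 0.72, 0.42, 0.85, 1.03 and 0.95 in Atm-/- replicates 1 to 5 and by 0.50, 0.95, 0.50, 1.02 and 0.75 in Rag2c/c p53-/- replicates 1 to 5. Between 34 (Atm-/- replicate 2) and 44 (Atm-/- replicate 5) of the 44 members exceeded every WT thymus in a given lymphoma, where 39.3% to 43.6% of all genes tested did. The same median over all genes tested lay between -0.05 and -0.004 in the 10 lymphomas. The median coefficient of variation of the members was 17.9% in Atm-/- lymphomas and 18.9% in Rag2c/c p53-/- lymphomas (30.1% and 33.9% over all genes tested), against 6.92% among the WT thymuses (11.4% over all genes).

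**Figure D4:**
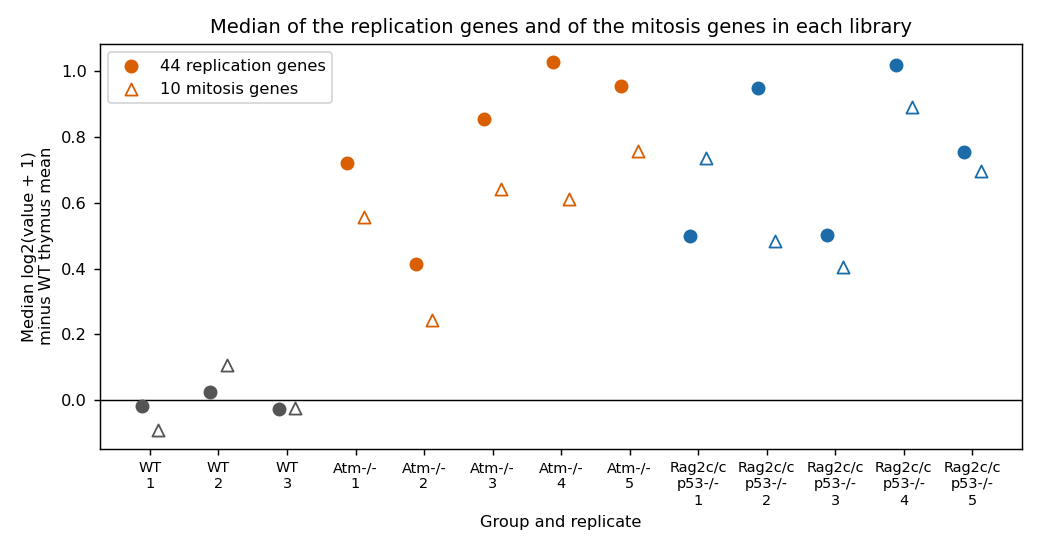
Filled circles give the median over the 44 replication genes, and open triangles the median over 10 mitosis genes, of log2(value + 1) minus the mean of the 3 WT thymuses, for each library. The replication medians lie between 0.42 and 1.03 in the 10 lymphomas and the mitosis medians between 0.24 and 0.89.

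Genes of mitosis were also read. Of 10 genes that act in G2 phase and mitosis, 7 passed as higher in Atm-/- lymphomas (median 0.57) and 5 in Rag2c/c p53-/- lymphomas (median 0.63), where 21.0% and 17.5% of all genes tested did. Aurkb, a kinase of chromosome segregation, rose by 1.16 and 1.26, and Plk1 by 0.98 and 0.94. The topoisomerase gene Top2a passed in Atm-/- lymphomas (0.53, adjusted p = 0.0437) and not in Rag2c/c p53-/- lymphomas (0.27, adjusted p = 0.308). Mki67, the common proliferation marker, was at 0.02 (adjusted p = 0.973) and -0.15 (adjusted p = 0.734). Its means were 16313 in WT thymus, 17520 in Atm-/- lymphomas and 15131 in Rag2c/c p53-/- lymphomas.

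Marker genes of thymocytes and of other cells were read as well. Over all genes tested, 21.0% passed as higher and 23.6% as lower in Atm-/- lymphomas, and 17.5% and 19.7% in Rag2c/c p53-/- lymphomas. Calls in short lists can lie near these shares, as for the 3 of 11 thymocyte and 1 of 5 myeloid genes in Rag2c/c p53-/- lymphomas. Of the 11 thymocyte genes, 5 passed as lower in Atm-/- lymphomas and 3 in Rag2c/c p53-/- lymphomas, with summed values of 174983 to 259551 in WT thymus, 67767 to 127595 in Atm-/- lymphomas and 102575 to 149788 in Rag2c/c p53-/- lymphomas. Of 6 fibroblast genes, 4 passed as higher in each group, and the list summed to 175 to 182 in WT thymus, 3488 to 15853 in Atm-/- lymphomas and 581 to 1945 in Rag2c/c p53-/- lymphomas. Myeloid genes passed as higher for 4 of 5 in Atm-/- lymphomas and 1 of 5 in Rag2c/c p53-/- lymphomas, with sums of 2749 to 2965, 4871 to 7764 and 2675 to 5657 in the same order. B cell genes passed as lower for 5 of 6 and 6 of 6, with sums of 1446 to 1770, 103 to 272 and 92 to 506. Thymic epithelial genes passed as lower for 4 of 6 in each group, with sums of 725 to 1058, 189 to 609 and 287 to 1320, and Psmb11 was listed at 0 in all Atm-/- lymphomas. Erythroid genes passed as higher for 2 of the 5 tested in each group (Klf1 and Epor), at sums of 414 to 773, 282 to 2915 and 331 to 2236. The other erythroid genes tested did not pass, namely Hba-a1 (0.53 and 0.01), Hbb-bt (-1.14 and -0.96) and Alas2 (-0.004 and -0.76). Of the 3 endothelial genes tested none passed in Atm-/- lymphomas. In Rag2c/c p53-/- lymphomas 2 passed as lower, Cdh5 and Kdr, with means of only 28 and 27 in WT thymus. Endothelial sums were 3606 to 3718, 3126 to 6186 and 1817 to 5255, and most of them was Pecam1 (mean of 3594 in WT thymus), which did not pass in either comparison. The part of these cells in the differences of the replication genes was not tested.

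Exon length moved with the deviations of single libraries. For each library, the deviation of each gene from the mean of its own group was set against the length of its exons. This length merges all annotated exons of a gene, so it can exceed that of its main transcript. It ran from 1136 bases (Rpa3) to 11160 bases (Pole). Over the 44 members, which share a library and its depth, Spearman's rho was -0.50 in Atm-/- replicate 2 and -0.40 in Rag2c/c p53-/- replicate 2, and up to 0.46 (Rag2c/c p53-/- replicate 1). Over 15759 genes it was -0.28, -0.39 and 0.25 in the same libraries. The 11 longest members, of 5578 bases or more, had a median deviation of -0.49 in Atm-/- replicate 2 and the 11 shortest one of -0.02, whereas the 11 shortest were at 0.25 in Rag2c/c p53-/- replicate 2 and the 11 longest at 0.04. Pola1, Pole and Rrm1 are the 3 longest members by this measure, and their low values in these libraries were given above. The part of length in the calls was not tested, and over the members the differences from WT thymus themselves had a rho with length of 0.03 in both comparisons.

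**Figure D5:**
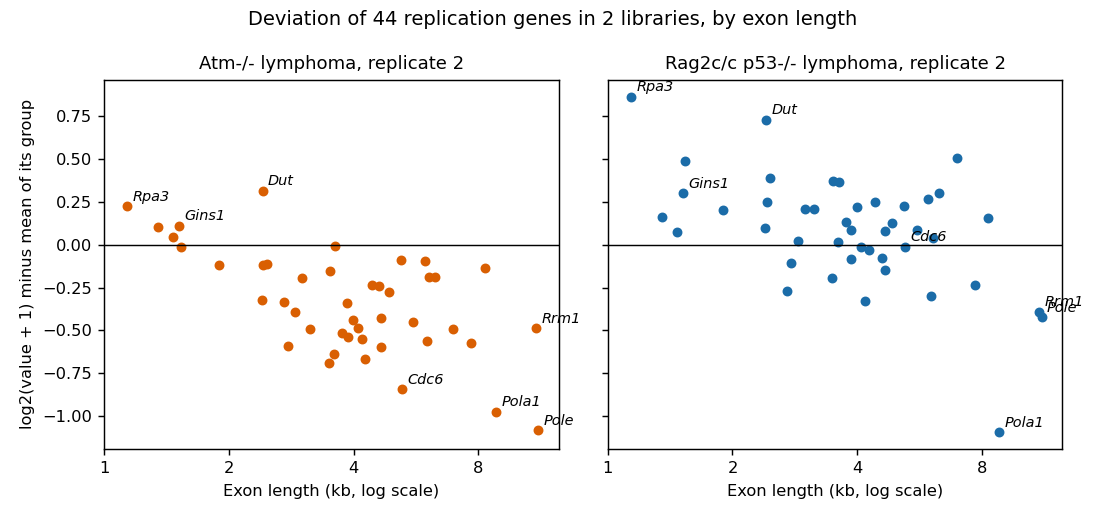
Each point is 1 of the 44 replication genes, with its exon length on a log axis in kb and its log2(value + 1) in replicate 2 of the Atm-/- lymphomas (left) or of the Rag2c/c p53-/- lymphomas (right) minus the mean of that group. The 3 longest genes, Pola1, Rrm1 and Pole, lie low in both panels (Spearman's rho -0.50 and -0.40), with Pola1 about 1 unit under its group in each.

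The lymphoma groups, in which strain and genotype cannot be told apart, were then compared with each other. No member passed in Atm-/- against Rag2c/c p53-/- lymphomas (limma), where 11.6% of all genes tested passed. At an unadjusted p under 0.05 there were 6 members, or 13.6%, where 26.2% of all genes had such a p. These were Gins1, Rfc3, Prim2 and Tk1, with higher means in Atm-/- lymphomas, and Orc1 and Cdc7, with higher means in Rag2c/c p53-/- lymphomas. The median member differed by 0.07 on the log2 scale. The 95% interval of the difference lay within 1 log2 unit of 0 for all 44, from a lowest bound of -0.93 (Cdc7) to a highest of 0.88 (Pola1). These bounds exceed the median rise over WT thymus (0.82 and 0.75), so the intervals do not show that the lymphoma groups are alike. Cdc7 came closest to passing, at -0.55 (95% interval -0.93 to -0.16, adjusted p = 0.0648). It passed without Atm-/- replicate 5 (adjusted p = 0.0293) or without Rag2c/c p53-/- replicate 2 (0.0395). Tk1, at 0.47 (0.11 to 0.82, adjusted p = 0.0853), was the single member with every Atm-/- lymphoma above every Rag2c/c p53-/- lymphoma, where 3.85% of all genes were so placed. Lig1, at 0.25 (-0.12 to 0.61), passed without Atm-/- replicate 2 (0.41, adjusted p = 0.0353). By role, the median difference was -0.21 for licensing and origin firing, where 7 of 8 genes had the higher mean in Rag2c/c p53-/- lymphomas, and 0.25 for nucleotide synthesis, where all 5 had the higher mean in Atm-/- lymphomas.

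Other genes of the same pathways were read from a list of 66 genes outside the 44. Of these, 36 passed as higher and 7 as lower in Atm-/- lymphomas (median 0.54), and 29 as higher and 7 as lower in Rag2c/c p53-/- lymphomas (median 0.48). Over all genes tested, 21.0% passed as higher and 23.6% as lower in the first comparison, and 17.5% and 19.7% in the second. Of 17 genes of purine and pyrimidine ring synthesis, 14 passed as higher and 1 as lower in Atm-/- lymphomas, and 10 and 2 in Rag2c/c p53-/- lymphomas. Those higher in both included Cad, which starts the pyrimidine ring (1.32 and 1.14), and Atic, which closes the purine ring (1.08 and 0.86). In the list of 15 deoxynucleotide genes, 6 passed as higher and 4 as lower in Atm-/- lymphomas, and 7 and 4 in Rag2c/c p53-/- lymphomas. Shmt2, the mitochondrial serine hydroxymethyltransferase, was at 3219, 3957 and 3325 in WT thymus, at 12131, 12249, 12710, 15297 and 12627 in Atm-/- lymphomas (1.89 ± 0.22, adjusted p = 3.49e-05) and at 6625, 16255, 9232, 8843 and 11171 in Rag2c/c p53-/- lymphomas (1.51 ± 0.22, adjusted p = 0.000267). Its cytosolic counterpart Shmt1 rose 2.68-fold and 2.89-fold, with means of 1098 ± 18 in WT thymus, 2963 ± 417 in Atm-/- lymphomas and 3224 ± 647 in Rag2c/c p53-/- lymphomas.

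The lowest difference among all of these genes was that of Samhd1, whose product degrades deoxynucleotides. It was at 3028, 2907 and 3271 in WT thymus, at 547, 247, 302, 252 and 358 in Atm-/- lymphomas and at 223, 341, 305, 227 and 209 in Rag2c/c p53-/- lymphomas. The groups lay far apart, with differences of -3.23 ± 0.26 (adjusted p = 1.94e-06) and -3.58 ± 0.26 (adjusted p = 1.67e-06). Cmpk2, a mitochondrial nucleotide kinase gene, was lower as well (-1.88 and -1.56), as were Ctps2, a CTP synthase gene (-0.80 and -1.15), Tk2, the mitochondrial thymidine kinase (-0.58 and -0.88), Mcm9 (-0.99 and -0.62) and Dck, the deoxycytidine salvage kinase (-0.98 and -0.52). Rrm2b, the reductase subunit induced by p53, did not pass (-0.25, adjusted p = 0.554, and -0.08, adjusted p = 0.859), with means of 592 ± 71 in WT thymus, 523 ± 168 in Atm-/- lymphomas and 582 ± 181 in Rag2c/c p53-/- lymphomas.

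A pair of factors of origin firing and the fork stood out among the genes that rose. Recql4, a helicase of origin firing, was at 509, 461 and 537 in WT thymus, at 2291, 767, 1838, 2580 and 2545 in Atm-/- lymphomas (1.88 ± 0.32, adjusted p = 0.00049) and at 1816, 1695, 1905, 1855 and 2491 in Rag2c/c p53-/- lymphomas (1.95 ± 0.32, adjusted p = 0.000542). Wdhd1, which links the helicase to polymerase alpha, was at 1451, 1416 and 1576 in WT thymus, at 9409, 3496, 7578, 12552 and 7348 in Atm-/- lymphomas (2.33 ± 0.41, adjusted p = 0.000642) and at 2631, 1776, 4095, 2190 and 6522 in Rag2c/c p53-/- lymphomas (1.05 ± 0.41, adjusted p = 0.0599). The lowest Atm-/- lymphoma for Wdhd1, replicate 2, lay below the 2 highest Rag2c/c p53-/- lymphomas, and the difference between them was 1.28 ± 0.36 (adjusted p = 0.035). In all, 4 of the 66 genes passed as higher and 2 as lower in Atm-/- against Rag2c/c p53-/- lymphomas, where 5.13% and 6.48% of all genes did. Leaving out 1 library at a time gave between 1 and 9 such genes instead of 6, fewest without Atm-/- replicate 4.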

How the data were processed

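Per the labels, RNA was taken from single-cell suspensions with RNeasy kits, and libraries were made with the TruSeq Stranded mRNA kit. The submitters' processing notes name bcl2fastq 1.8.3, STAR 2.4.0g1, Picard, DESeq2 1.6.3 and the GRCm38 (mm10) build. The read counter, its strand setting and the annotation release were not given in the sources used here. The deposited table holds, as a score, read counts per gene that the authors divided by size factors and rounded, as read from the values. Its columns of the authors' own comparisons (fold changes and p-values) were not used.

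Log2(value + 1) was fitted with limma 3.58.1 (R 4.3.3), with robust moderation and a trend of variance on mean, on 13 libraries in 3 groups. A gene entered the test when 3 or more libraries held a value of 10 or higher (15872 genes), and passed at a Benjamini-Hochberg adjusted p under 0.05 over all of them, two-sided. A stricter rule also asked for 2-fold. Fold changes are on the log2(value + 1) scale. Replicates are separate mice. Exon lengths, also those behind values per kb of exon, come from an annotation of the same build. They merge all annotated exons of a gene. Promoters come from RefSeq.

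Members and lists were chosen with earlier results of these data known. Per-library values are given for the members with the highest and lowest difference in each role and for those with a library far from its group, and the 3 highest and 3 lowest of the other genes that passed are named, with further genes named after their values were seen. Alternatives were other scalings, filters, pseudocount, moderation, weights and left-out libraries. Leaving out the 2 shallowest libraries together was chosen after seeing the data. For 6 libraries the depth could be read from the steps between low values, and precision at low values is limited by it.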

Additional observations from a re-analysis of the deposited data

Results flagged for a closer look

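In 9 of the 88 groups of 5 lymphomas that the members form, 1 library stood far from the other 4 (Dixon's test at the 95% level). Chance gives about 1 in 20 for a single group. The members share their libraries, so the 88 groups are not independent and their count cannot be set against that rate. Atm-/- replicate 2 was the low library for Mcm2 (6988), Mcm3 (6360), Mcm4 (4718) and Rpa1 (4542). Rag2c/c p53-/- replicate 2 was low for Pola1 (635), and Rag2c/c p53-/- replicate 3 was low for Tk1 (1819). High libraries were Atm-/- replicate 4 for Pola2 (4674) and Tk1 (5052) and Atm-/- replicate 3 for Pold2 (4248). Among the other genes named, Recql4 was high in Rag2c/c p53-/- replicate 5 (2491) and Shmt2 in Atm-/- replicate 4 (15297).

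The difference of Atm-/- from Rag2c/c p53-/- lymphomas passed the limma test for 6 of the 66 other genes of the pathways, where 11.6% of all genes tested passed. It was 1.28 for Wdhd1 (adjusted p = 0.035), 0.67 for Prps1, which makes the ribose donor of nucleotides (adjusted p = 0.0168), 0.48 for Dhodh, an enzyme of the pyrimidine ring (adjusted p = 0.0399), and 0.43 for Mcmbp, a binding partner of MCM proteins (adjusted p = 0.0221). It was -0.48 for Orc3, an origin recognition subunit (adjusted p = 0.0341), and -0.46 for Dck (adjusted p = 0.0479). Only 1 of the 66 genes passed when just the groups compared were fitted, and only 1 without Atm-/- replicate 4.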

How the results depend on the processing

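The median difference of the 44 members kept its direction under every alternative run, and with 1 library left out it was 0.76 to 0.90 in Atm-/- lymphomas and 0.69 to 0.81 in Rag2c/c p53-/- lymphomas. Leaving out 1 library gave 29 to 39 members that passed in Atm-/- lymphomas and 25 to 33 in Rag2c/c p53-/- lymphomas, and 0 to 1 between the lymphoma groups. Over all genes it gave 4619 (without WT thymus replicate 3) to 7099 genes in Atm-/- lymphomas, and 3491 (without WT thymus replicate 3) to 6141 in Rag2c/c p53-/- lymphomas, with 3622 without WT thymus replicate 1. It gave 1 to 9 of the 66 other genes between the lymphoma groups. There, 3 passed without a filter on low values, 3 without trend and robust moderation, 1 when only the groups compared were fitted and 1 with 2-fold in addition. Fitting only those groups left 1055 genes in all. Quality weights gave 41 and 42 members in the comparisons with WT thymus, 11125 genes in Atm-/- lymphomas and 9623 in Rag2c/c p53-/- lymphomas, and 1 member, Rfc3, between the lymphoma groups (adjusted p = 0.0264). Asking for 2-fold left 10 members in each comparison with WT thymus, 17 and 14 other genes, and 3782 genes in Rag2c/c p53-/- lymphomas. Without the 2 shallowest libraries, an alternative chosen after seeing the data, 3920 genes passed in Rag2c/c p53-/- lymphomas. Fewer genes under a stricter rule follow from its construction. The causes of the other changes in these counts were not tested.

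No difference of a member that passed changed sign under the alternatives run. Among those that did not pass, Pola1 between the lymphoma groups started from 0.22 and changed sign, and Orc6, Cdt1, Gmnn, Mcm6, Rfc1, Rfc2, Rfc4, Pold3, Pole and Rpa3 also did so there under some setting. Between the lymphoma groups, Mcm2 turned to -0.0078 with recomputed size factors and -0.0096 with equal totals, Orc2 to 0.0604 and Cdc45 to 0.0222 with quality weights, and Cdc45 to 0.0544, Gins3 to -0.0339 and Pola1 to -0.0546 without the 2 shallowest libraries. Cdc7 in Atm-/- against WT thymus turned to 0.0936 with quality weights. With 1 library left out, differences between the lymphoma groups ran from -0.1431 to 0.0588 (Cdc45), -0.0484 to 0.117 (Gins3), -0.0887 to 0.1314 (Mcm2), -0.0131 to 0.204 (Mcm3), -0.067 to 0.084 (Orc2), -0.0546 to 0.4628 (Pola1), -0.0362 to 0.1091 (Pold2) and -0.0465 to 0.2237 (Rrm2). Against WT thymus in Atm-/- lymphomas they ran from -0.1343 to 0.1225 (Cdc7) and -0.3085 to 0.0649 (Pola1). No paired analysis was possible because the replicate numbers of the lymphomas only name samples in accession order and tie no mouse of one group to a mouse of another.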
